A study of Mus musculus with 2 samples.

Results

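Of the 140 genes on the imaging panel, 6 encode proteins of the extracellular matrix and were taken by name: Fn1, Col12a1, Col18a1, Col8a1, Lama2 and Matn2. Duodenum and colon of 1 male and 1 female C57Bl6 mouse, aged 6 to 10 weeks by their labels and with no treatment named, were fixed in paraformaldehyde, cut at 10 µm and imaged with MERSCOPE, which counts single RNA molecules in segmented cells by their barcodes. Each animal gave 2 regions, numbered 0 and 1. Neither region is tied to an organ by its label, and equal numbers in the 2 animals are not treated as the same organ. There is 1 animal of each sex, so sex, animal and region cannot be told apart, and regions are described with counting intervals and no test.

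The extracellular matrix of the gut wall is the protein scaffold around its cells, laid down largely by fibroblasts and muscle cells and packed into a basement membrane beneath the epithelium. Fibronectin (Fn1) is a glycoprotein that binds integrins and collagens. Collagen XII (Col12a1) attaches to the surface of collagen fibrils, collagen XVIII (Col18a1) belongs to basement membranes, and collagen VIII (Col8a1) forms networks around vessels and other tissues. Lama2 encodes a laminin chain of the basement membranes of muscle and nerve, and matrilin-2 (Matn2) is an adaptor that links matrix filaments. The list of other matrix and adhesion genes held 37 names, of which 0 were on the panel, so the matrix is seen here through these 6 genes alone.

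Depth differed widely between regions. Male region 0 had 7775 cells and 3048 panel counts, male region 1 had 4068 cells and 582, female region 0 had 6343 cells and 4288, and female region 1 had 13707 cells and 45942. Panel counts per cell were 0.392, 0.143, 0.676 and 3.35 in that order, and 1256 cells of female region 1 held at least 10 counts against 55, 4 and 77 in the other 3 regions. No cell identifier was shared between regions. Background was read from 40 blank barcodes, which match no gene, and the highest blank had 9, 2, 33 and 46 counts.

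The matrix genes together took 189, 53, 430 and 4768 counts, which is 6.20%, 9.11%, 10.0% and 10.4% of the panel counts. Cells with at least 1 matrix count made up 1.505% (95% exact binomial interval 1.25 to 1.80) of male region 0, 0.934% (0.662 to 1.28) of male region 1, 3.39% (2.96 to 3.86) of female region 0 and 18.97% (18.3 to 19.6) of female region 1. The share of cells was highest in the deepest region and lowest in the shallowest, while the share of panel counts was much alike in male region 1 and both female regions. All intervals here cover counting error only, and molecules of one cell are not independent of each other.

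In female region 1 all 6 matrix genes lay above the highest blank, as did 66.4% of all panel genes. In the other regions most did not. Male region 1 had 3 (Fn1, Col12a1 and Lama2) where 37.9% of the panel passed, and only Col12a1 passed in male region 0, where 32.9% of the panel did, and in female region 0, where 16.4% did. Statements about Col18a1, Col8a1 and Matn2 therefore rest on female region 1, which held 95.8%, 97.5% and 91.1% of their counts against 85.3% of all panel counts.

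**Figure D1:**
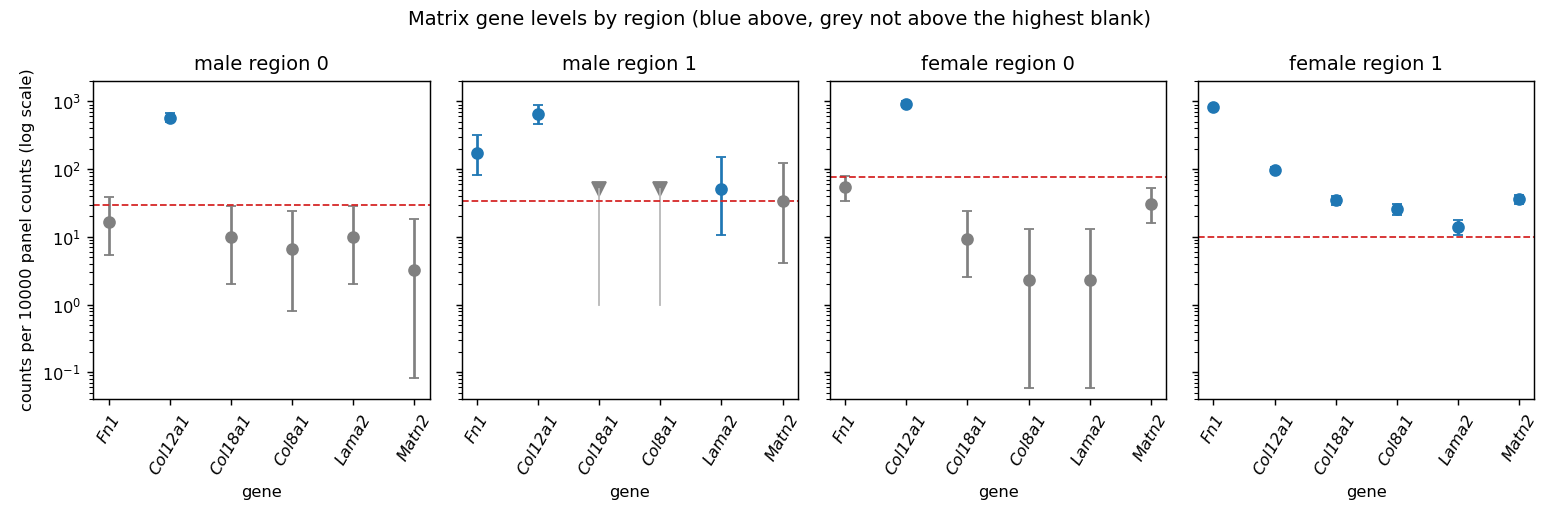
Level of each matrix gene (counts per 10000 panel counts, log scale) in the 4 regions, with 95% exact Poisson intervals. The dashed red line is the highest blank of the region, blue points lie above it and grey points do not, and a triangle marks the limit that 0 counts allow (3 counts of the region's total). Col12a1 lies above the line in every panel, and Fn1 in male region 1 and female region 1.

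Fn1 had 5 counts in male region 0, 10 in male region 1, 23 in female region 0 and 3813 in female region 1. Scaled to 10000 panel counts these are 16.4 (5.33 to 38.3), 172 (82.4 to 316), 53.6 (34.002 to 80.5) and 830 (804 to 857). The level in female region 1 stood above the other 3 intervals and was the highest of all 140 genes there, whereas in both regions numbered 0 the gene had fewer counts than the highest blank. Female region 1 held 99.0% of all Fn1 counts, and its level was 17.3 times that of the other 3 regions together (12.6 to 24.5). Every Fn1-positive cell outside female region 1 carried exactly 1 Fn1 count. In female region 1, 2192 cells (16.0%, 15.4 to 16.6) were positive with 1.74 counts each on average, 756 of them had 2 or more, and the highest cell had 21.

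Col12a1 was the matrix gene of the other 3 regions. It had 175, 38, 388 and 450 counts, or 574 (492 to 666), 653 (462 to 896), 905 (817 to 1000) and 98.0 (89.1 to 107) per 10000 panel counts. It ranked 4, 3, 3 and 21 among the 140 genes, and its level in female region 1 lay below the intervals of the other 3. The share of cells told another story: 1.36% (1.12 to 1.65), 0.565% (0.359 to 0.847), 2.77% (2.38 to 3.21) and 2.86% (2.59 to 3.15) of the cells had a Col12a1 count, so the intervals of the 2 female regions overlapped. Counts per positive cell were 1.65, 1.65, 2.20 and 1.15. Of the positive cells, 35.8%, 13.04%, 44.9% and 10.5% held 2 or more counts, and the highest cells held 9, 12, 23 and 5. In male region 1 a single cell carried 12 of the 38 counts (31.6%).

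The other 4 genes were sparse outside female region 1. Col18a1 had 3, 0, 4 and 160 counts. A count of 0 in male region 1 allows up to 51.5 per 10000, by 3 counts of its total, which is more than the 34.8 (29.6 to 40.7) measured in female region 1. Col8a1 had 2, 0, 1 and 117 counts, with 25.5 (21.1 to 30.5) per 10000 in female region 1. Absence in male region 1 cannot be claimed for either gene at this depth.

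Lama2 had 3, 3, 1 and 64 counts, and each of its positive cells held exactly 1. Its 13.9 per 10000 (10.7 to 17.8) in female region 1 was 1.39 times the highest blank, the smallest margin of the 6 genes there. Matn2 had 1, 2, 13 and 164 counts, with 35.7 per 10000 (30.4 to 41.6) in female region 1 and 30.3 (16.1 to 51.8) in female region 0, where 3 blanks were as high or higher. Probe sets differ in how well they detect their RNA, so ranks among the panel genes are ranks of counts and not of molecules in the tissue.

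Within the female, the matrix genes split. Per 10000 panel counts, region 1 exceeded region 0 for Col8a1 by 10.9-fold (1.92 to 435), Lama2 by 5.97-fold (1.03 to 240) and Col18a1 by 3.73-fold (1.43 to 13.9), each resting on 1, 1 and 4 counts in region 0. Fn1 exceeded by 15.5-fold (10.3 to 24.4). Matn2 had a ratio of 1.18 whose interval spanned 1 (0.670 to 2.26) but was 5.84 (3.32 to 11.2) per cell, and Col12a1 a ratio of 0.108 (0.0943 to 0.124). At least 2-fold higher were 4 of the 6 matrix genes against 33.1% of the panel genes with at least 20 counts, and 1 of 6 was at least 2-fold lower against 26.8%. The ratios of the panel as a whole were thus spread widely in both directions. Col8a1, Lama2 and Col18a1 met the 20 counts only through region 1, so the 4 of 6 is not read as support for a difference.

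Between the male regions, the ratio of Col12a1 in region 1 over region 0 was 1.14 (0.779 to 1.62) per 10000 panel counts. It was 0.415 (0.284 to 0.592) per cell and 5.67 (3.17 to 9.68) in cells with at least 10 counts, of which region 1 had 4, so no direction is given. For Fn1 the ratio was 10.5 (3.26 to 39.1) on 10 and 5 counts, the 5 being fewer than the highest blank of region 0. In cells with at least 10 counts region 1 held no Fn1. Between the animals, over both regions, the female exceeded the male at least 2-fold for 4 of 6 matrix genes (29.4% of the panel) and fell at least 2-fold below for 1 of 6 (35.3%). Of the higher genes, Col18a1, Col8a1 and Matn2 had 3, 2 and 3 counts in the male and met the 20-count minimum only through the female. The 4 of 6 is therefore not read as support for a difference. The lower gene was Col12a1, with 587 (511 to 671) per 10000 in the male and 167 (156 to 179) in the female, a ratio of 0.284. The Col12a1 ratio turned to 1.54 without female region 1 and to 2.32 when scaled per cell. Without female region 1, 3 of the 4 higher genes were no longer at least 2-fold higher, with ratios of 1.30 for Fn1 (0.649 to 2.68), 1.13 for Col18a1 (0.191 to 7.71) and 0.423 for Col8a1 (0.00717 to 8.13). Fewer cells of a type and less RNA per cell cannot be told apart in such sums.

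To place the matrix genes among tissue layers, cells were grouped by markers: at least 1 count of Pdgfra, a growth factor receptor of fibroblasts, at least 1 of Vim, the intermediate filament of mesenchymal cells, at least 2 of Des, the muscle intermediate filament, or at least 3 of Aqp8 and Slc26a3 together, the water channel and the chloride exchanger of absorptive epithelium. Female region 1 had 533 Pdgfra cells, 836 Vim cells, 264 Des cells and 650 Aqp8+Slc26a3 cells. A further 11651 cells met none of the criteria and are called unmarked. They are not free of the markers, since Des, Aqp8 and Slc26a3 counts below the thresholds are allowed. Of 783 cells with a Des count, 264 reached the Des threshold, and unmarked cells averaged 0.0993 counts of Aqp8 and Slc26a3 together. The other regions had 34 Pdgfra cells, 7 Vim cells, 0 Des cells and 1 Aqp8+Slc26a3 cell in all, so the groups are described in female region 1, which is 1 region of 1 animal with no replicate. Levels in groups are counts per 10000 panel counts with the 5 grouping genes left out of the total.

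The groups are not pure cell types. Of the Pdgfra cells 17.4% were also Vim cells and 11.4% also Aqp8+Slc26a3 cells, while 0 cells met both the Des and the Aqp8+Slc26a3 criteria. Ezr, a cytoskeletal linker of the epithelial surface that chose no group, had 1096, 647, 64.7, 2352 and 591 counts per 10000 in the Pdgfra, Vim, Des, Aqp8+Slc26a3 and unmarked cells. Dmpk, a kinase of muscle, had 317, 563, 2926, 62.8 and 499. The panel held none of the listed endothelial or immune markers, so those cells sit unseen in any group. The part of mixed segmentation in the levels below was not tested.

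Fn1 was high in the Des and Vim cells and low in the epithelial group. It took 1168 per 10000 (1065 to 1278) in Pdgfra cells, 1779 (1670 to 1893) in Vim cells, 1843 (1653 to 2049) in Des cells, 140 (118 to 166) in Aqp8+Slc26a3 cells and 1208 (1157 to 1260) in unmarked cells. The Vim and Des intervals overlapped, the Pdgfra and unmarked intervals overlapped, and the epithelial interval stood apart from all. Relative to unmarked cells the ratio was 1.53 in Des cells (1.36 to 1.71), 1.47 in Vim cells (1.36 to 1.59), 0.967 in Pdgfra cells (0.873 to 1.07) and 0.116 in Aqp8+Slc26a3 cells (0.0968 to 0.138). Unmarked cells still carried 56.3% of all Fn1 counts of the region. Their median was 0 panel counts, against 7, 7, 8 and 19 in the Pdgfra, Vim, Des and Aqp8+Slc26a3 cells. A marker missing or below its threshold in a shallow cell therefore says little of its type.

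The share of cells with an Fn1 count depends on depth. At full depth it was 39.4%, 45.2%, 58.3%, 16.8% and 12.4% in Pdgfra, Vim, Des, Aqp8+Slc26a3 and unmarked cells. When each cell with at least 10 counts was thinned to 10, the shares were 48.4% of 189, 61.3% of 258, 71.4% of 113, 8.83% of 542 and 44.0% of 321 cells. Unthinned, the same cells gave 57.1%, 67.8%, 84.1%, 17.3% and 50.5%. Des cells were highest and Vim cells next in each of these measures, and at an equal total the epithelial group was lowest. That total includes the grouping genes, and of the 15512 panel counts of all Aqp8+Slc26a3 cells 9706 were outside them. Cells thinned to 10 are thus not at equal depth of the other genes. The cells left out as too shallow numbered 344, 578, 151, 108 and 11330.

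Col12a1 took 145 per 10000 (110 to 187) in Pdgfra cells, 197 (162 to 238) in Vim cells, 178 (122 to 250) in Des cells, 24.7 (15.8 to 36.8) in Aqp8+Slc26a3 cells and 145 (128 to 164) in unmarked cells. Only the epithelial interval stood apart, below the other 4. Col18a1 was highest in Vim cells, with 89.7 (66.6 to 118), then 71.3 (47.7 to 102) in Pdgfra cells, 47.3 (37.7 to 58.6) in unmarked, 26.9 (8.75 to 62.9) in Des and 9.27 (4.24 to 17.6) in Aqp8+Slc26a3 cells. The Vim and Pdgfra intervals overlapped, and the ratio of Vim over unmarked cells was 1.90 (1.31 to 2.72).

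Col8a1 and Matn2 had another profile, with unmarked cells at or near the top. Col8a1 took 49.6 (39.7 to 61.1) in unmarked cells, 28.7 (16.4 to 46.6) in Vim, 26.9 (8.75 to 62.9) in Des, 19.7 (8.49 to 38.7) in Pdgfra and 2.06 (0.250 to 7.44) in Aqp8+Slc26a3 cells. Unmarked cells held 75.2% of its counts, the largest such share of the 6 genes. Matn2 took 75.3 (54.3 to 102) in Vim cells, 62.5 (51.4 to 75.3) in unmarked, 29.5 (15.2 to 51.5) in Pdgfra, 26.9 (8.75 to 62.9) in Des and 6.18 (2.27 to 13.5) in Aqp8+Slc26a3 cells. In Pdgfra cells the ratios over unmarked cells were 0.397 (0.166 to 0.817) for Col8a1 on 8 counts and 0.472 (0.237 to 0.858) for Matn2 on 12. Neither held under every choice: against all cells outside the group they were 0.567 (0.239 to 1.16) and 0.610 (0.308 to 1.10), Col8a1 was at 0.758 (0.296 to 1.63) with only cells meeting 1 criterion, Matn2 at 0.750 (0.254 to 2.02) in cells with at least 10 counts, and per cell the ratios were 1.99 and 2.36.

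Lama2, the laminin chain of muscle basement membranes, had few counts in the Des cells. It took 16.2 per 10000 (3.33 to 47.2) there on 3 counts, 30.5 (17.8 to 48.8) in Vim, 14.7 (5.41 to 32.1) in Pdgfra, 23.1 (16.6 to 31.3) in unmarked and 1.03 (0.0261 to 5.74) in Aqp8+Slc26a3 cells. The Des interval is too wide to place the gene: the ratio over unmarked cells was 0.700 (0.139 to 2.19).

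**Figure D2:**
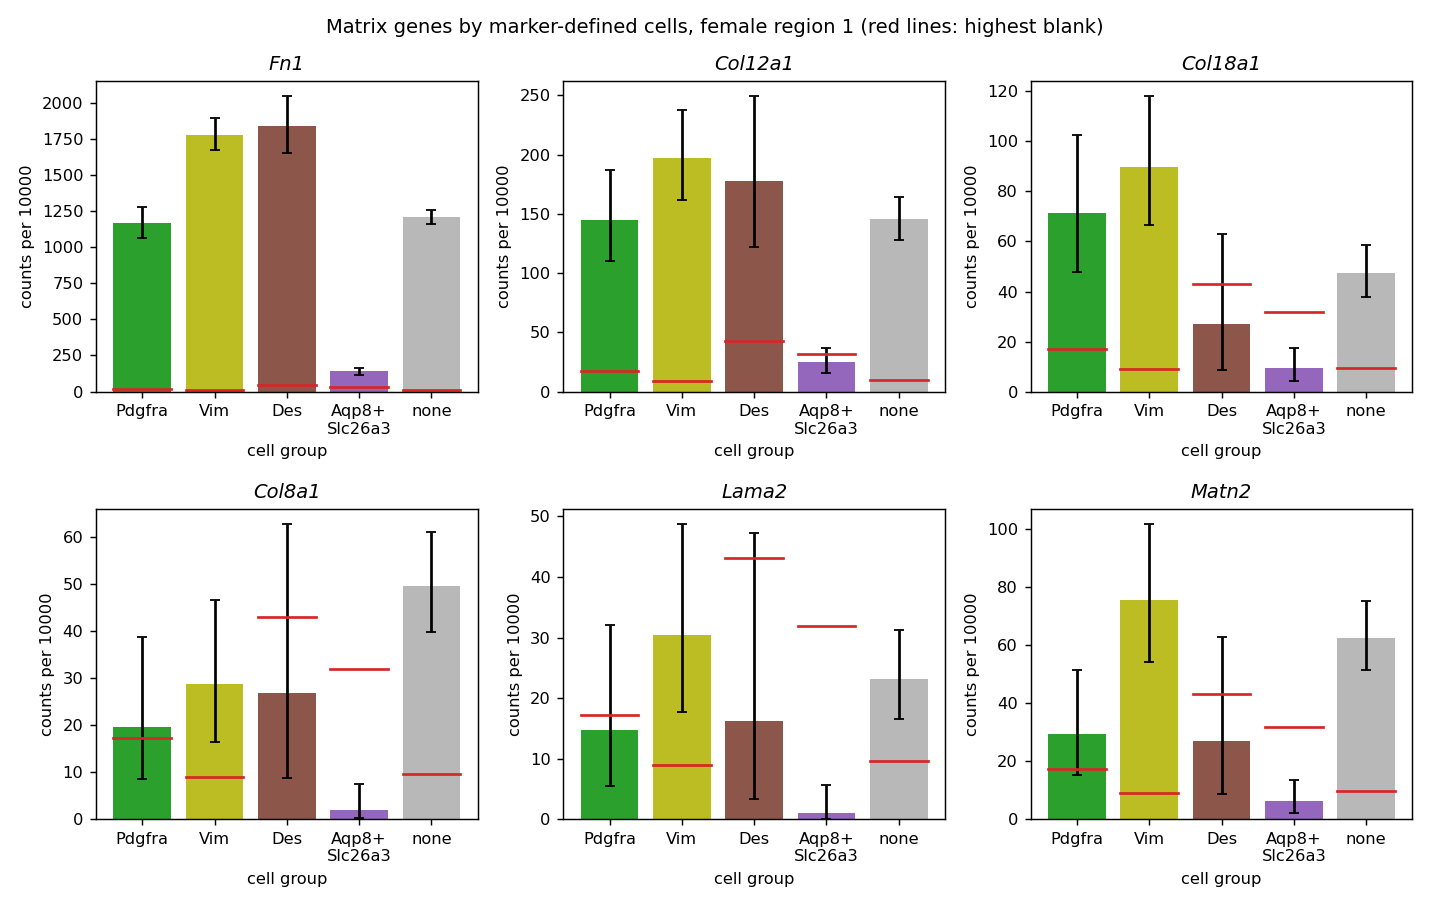
Level of each matrix gene (bars, counts per 10000 panel counts without the grouping genes, axis from 0) in the marker-defined cells of female region 1, with 95% exact Poisson intervals and the highest blank of each group as a red line. In the Aqp8+Slc26a3 cells only Fn1 exceeds the highest blank, and in the Des cells only Fn1 and Col12a1 do.

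Against the highest blank of each group, all 6 genes were above it in Vim cells and in unmarked cells, 5 in Pdgfra cells (Lama2 was not), 2 in Des cells and 1, Fn1, in Aqp8+Slc26a3 cells. In the epithelial group the other 5 genes were thus not above the highest blank. Relative to unmarked cells, 6 of 6 matrix genes were at least 2-fold lower in Aqp8+Slc26a3 cells, beside 43.0% of the panel genes, and the median ratio was 0.107 for the 6 genes against 0.631 for all genes compared. The ratios ran from 0.0416 for Col8a1 (0.00496 to 0.155) to 0.196 for Col18a1 (0.0866 to 0.390). On a per-cell scale, where an Aqp8+Slc26a3 cell holds many times the counts of an unmarked one, 2 of 6 were at least 2-fold lower and the Fn1 ratio was 1.14.

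No matrix gene was at least 2-fold higher in Pdgfra, Vim or Des cells than in unmarked cells, where 3.06%, 2.97% and 20.4% of the panel genes were. At least 2-fold lower were 2 of 6 in Pdgfra cells (9.18% of the panel), 0 of 6 in Vim cells (9.90%) and 1 of 6, Matn2 on 5 counts, in Des cells (32.7%). The genes called, Col8a1 and Matn2, met the 20-count minimum only through the unmarked cells, so these numbers of genes are not read as support either. The count for Pdgfra cells was 1 of 6 with only cells meeting 1 criterion, and 0 of 6 per cell or against all cells outside the group.

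Set directly against the epithelial group, using only cells that met 1 criterion (a comparison added after seeing the data), Fn1 was 9.85-fold higher in Pdgfra cells (7.89 to 12.4), 13.97-fold in Vim cells (11.5 to 17.2) and 12.5-fold in Des cells (9.97 to 15.7). For Col12a1 the ratios of counts were 7.38 (4.16 to 13.5), 8.54 (5.18 to 14.7) and 6.11 (3.18 to 11.8). For Col18a1 they were 8.20 (3.31 to 22.1) and 8.96 (4.07 to 22.4) in Pdgfra and Vim cells, but in Des cells it had 1 count and a ratio of 0.694 (0.0156 to 5.18). Since neither gene was above the highest blank in the Aqp8+Slc26a3 cells, these are ratios over a level that background alone could give, not measured folds. With at least 20 counts over both sides required, 3 of 3 matrix genes were at least 2-fold higher in Pdgfra cells (37.3% of the panel). In Vim cells 4 of 4 were (43.9%), and in Des cells 2 of 2 (30.2%). A sparse gene can pass that filter only through the group where it is high, and Col18a1 in Des cells did not pass it. These counts are therefore not read as support for a difference.

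Only the Pdgfra cells reached the size needed for a test over both animals, and barely: 29 male cells with 59 counts outside the grouping genes, against 538 female cells with 4073. Counts were summed per animal over both regions and compared with the unmarked cells by edgeR's quasi-likelihood test. The animal was a block, and Benjamini-Hochberg adjustment was over 88 genes. In the female, 533 of the 538 Pdgfra cells lay in region 1, but 6332 of the 17983 unmarked cells lay in region 0. Cell group and region are thus mixed in this contrast and cannot be told apart. The test called 3 genes (3.41%), all lower in Pdgfra cells and none a matrix gene: the mucin Muc6, the synaptic scaffold Dlgap1 and the receptor phosphatase Ptprz1. All 3 had 0 counts in the male Pdgfra cells, Ptprz1 in both animals, and DESeq2 or edgeR without the block called 0 genes. In simulated sums with 12 of 88 genes changed 16-fold, the test called 8.55% of the unchanged genes. That setting differs from these data, so the shares are not compared. None of the 6 matrix genes passed, with edgeR adjusted p from 0.762 for Col8a1 (log2 fold change -1.04, SE 0.55) to 0.976 for Fn1 (0.05, SE 1.76). Col12a1 was the only matrix gene with counts in the male Pdgfra cells. Fn1, Col18a1, Col8a1, Lama2 and Matn2 had 0 counts there, so their fold changes rest largely on the female. The lowest unadjusted p of a matrix gene in edgeR was 0.0606, and DESeq2 called 0 of the 6. The SE of Fn1 leaves room for changes of several fold either way.

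The matrix genes were found in the same cells of female region 1 more often than expected within strata of cell depth. Cells were sorted into 12 depth strata, and the number of cells expected to hold both genes was computed within each. Of the 15 pairs of matrix genes, 8 had at least 5 expected cells, and 8 of 8 reached 1.5 times the expected number, against 13.9% of all 2671 panel pairs, whose median ratio was 1.06. The pairs share genes (5 of the 8 include Fn1), so they are not independent.

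Fn1 and Col12a1 were together in 195 cells against 108.5 expected (ratio 1.80, 1.55 to 2.07), which is 49.7% of the Col12a1 cells and 8.90% of the Fn1 cells. Fn1 was with Col18a1 in 87 cells (1.97, 1.58 to 2.43), with Matn2 in 80 (1.95, 1.54 to 2.42), with Col8a1 in 47 (1.57, 1.15 to 2.09) and with Lama2 in 35 (2.22, 1.55 to 3.09). From 43.5% of the Col8a1 cells to 58.8% of the Col18a1 cells thus also carried Fn1. Among pairs without Fn1, Col12a1 met Matn2 in 19 cells (2.33, 1.40 to 3.64) and Col18a1 in 18 (1.93, 1.14 to 3.05), while the interval for Col12a1 with Col8a1, in 9 cells, spanned 1 (1.53, 0.699 to 2.90). Lama2 and Matn2 shared 7 cells where 1.30 were expected, a ratio of 5.38 (2.16 to 11.1) that falls under the minimum of 5 expected cells. With 14 blank barcodes the median ratio of Fn1 was 0.949.

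**Figure D3:**
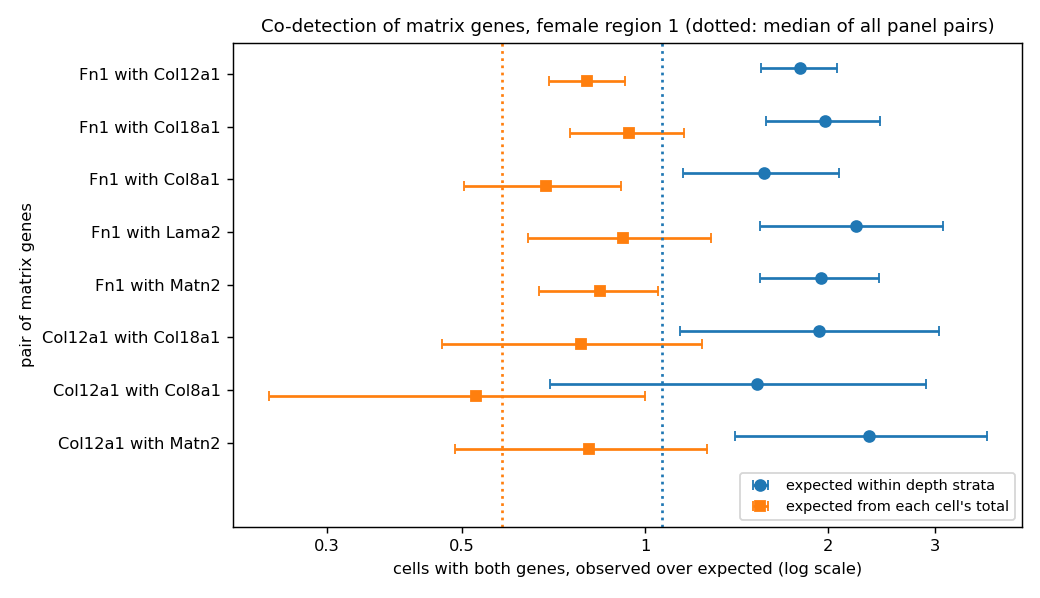
Cells holding both genes of a pair, observed over expected (log scale, 95% Poisson intervals), for the 8 pairs of matrix genes with at least 5 expected cells in female region 1. Blue circles take the expectation within depth strata and orange squares from each cell's total counts, and the dotted lines are the medians over all 2671 panel pairs, 1.06 and 0.582. All blue points lie right of their dotted line, and 7 of the 8 orange points do.

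The excess depends on how the expectation is made. When each gene's chance was computed from a cell's total counts by a binomial model instead, 0 of the 8 pairs reached 1.5 and Fn1 with Col12a1 fell to 0.804 (0.695 to 0.926). The same model put the median of all panel pairs at 0.582, and 7 of the 8 matrix pairs had point estimates above that median, Col12a1 with Col8a1 being the exception. Of those 7, the intervals of Fn1 with Col8a1 (0.687, 0.505 to 0.913), Col12a1 with Col18a1 (0.784, 0.465 to 1.24) and Col12a1 with Matn2 (0.809, 0.487 to 1.26) include that median. In cells with at least 10 counts, 6 of the 8 reached 1.5 within depth strata, Fn1 with Col12a1 being at 1.40 (1.13 to 1.71) and Fn1 with Col18a1 at 1.34 (0.967 to 1.81). In unmarked cells 6 of the 8 did, with Fn1 and Col8a1 at 1.42 (0.936 to 2.07) and Col12a1 and Col18a1 at 0.812 (0.167 to 2.37). Some of these pairs fell under the minimum of 5 expected cells. In unmarked cells Col12a1 had 3.70 expected cells with Col18a1, 3.29 with Col8a1 and 4.41 with Matn2. With at least 10 counts per cell it had 3.60 with Col8a1. Outside female region 1 no pair of matrix genes reached 5 expected cells.

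Stromal genes were found with most of the matrix genes in more cells than expected. Vim and Pdgfra also define the groups above, so their values describe the same cells again. Vim was found with Col18a1 in 47 cells at 2.38 times the expected number (1.75 to 3.16), with Lama2 at 2.36 (1.38 to 3.78), with Matn2 at 2.05 (1.43 to 2.84), with Col12a1 at 1.99 (1.61 to 2.44) and with Fn1 at 1.60 (1.45 to 1.77). Only with Col8a1 did the interval span 1 (1.29, 0.739 to 2.10). Slit3, a secreted guidance ligand, was at 2.32 with Col12a1 (1.58 to 3.27), 2.23 with Matn2 (1.15 to 3.89), 2.07 with Col18a1 (1.07 to 3.61) and 1.94 with Fn1 (1.63 to 2.30).

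Pdgfra was at 2.09 with Col18a1 (1.38 to 3.04), 1.65 with Col12a1 (1.23 to 2.18) and 1.38 with Fn1 (1.20 to 1.58). Its intervals with Col8a1 (0.984, 0.425 to 1.94) and Matn2 (0.879, 0.422 to 1.62) spanned 1. They also overlapped the intervals with Col18a1, Col12a1 and Fn1, so no difference between the genes is read. Of the muscle genes, Des was at 1.78 with Col12a1 (1.38 to 2.26) and 1.58 with Fn1 (1.41 to 1.77), and its intervals with the other 4 genes spanned 1. Dmpk was at 1.84 with Col12a1 (1.499 to 2.23), 1.66 with Matn2 (1.16 to 2.30) and 1.51 with Fn1 (1.37 to 1.66). The median ratio over all readable partner genes of Fn1 was 1.21. Under the binomial expectation that median was 0.585, and Des with Fn1 lay below it at 0.462. Dmpk (0.602) and Pdgfra (0.608) with Fn1 were close to it.

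Epithelial genes were found with the matrix genes less often than expected. Aqp8 ranged from 0.0842 with Lama2, which is 1 cell against 11.9 expected (0.00213 to 0.469), to 0.595 with Fn1 (0.517 to 0.682). Slc26a3 ranged from 0.363 with Lama2 (0.118 to 0.848) to 0.732 with Fn1 (0.652 to 0.819), and its interval spanned 1 only with Col18a1 (0.689, 0.454 to 1.00). Ezr, from 0.332 with Lama2 to 0.803 with Col18a1, spanned 1 with Col18a1 and Col8a1. The chloride channel gene Cftr, known from crypt epithelium, was at 1.16 with Fn1 (0.852 to 1.54) and 0.645 with Col12a1 (0.209 to 1.51), and both intervals spanned 1.

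Of the growth factor genes, the coreceptor Tgfbr3 was at 2.21 with Col12a1 (1.40 to 3.32) and 1.61 with Fn1 (1.28 to 2.01), and Fgfr1 was at 2.23 with Col12a1 (1.64 to 2.97), 2.07 with Matn2 (1.18 to 3.35), 1.78 with Col18a1 (1.02 to 2.88) and 1.53 with Fn1 (1.30 to 1.79). The ligand Tgfb2 and the receptor Egfr had intervals that spanned 1 with Fn1. Glial and neuronal genes were rare enough that few could be read: for Fn1, 4 glial and 5 neuronal genes had 5 expected cells, all with intervals that spanned 1, and the glial gene highest with Fn1 was Sox10 (1.52, 0.727 to 2.79).

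**Figure D4:**
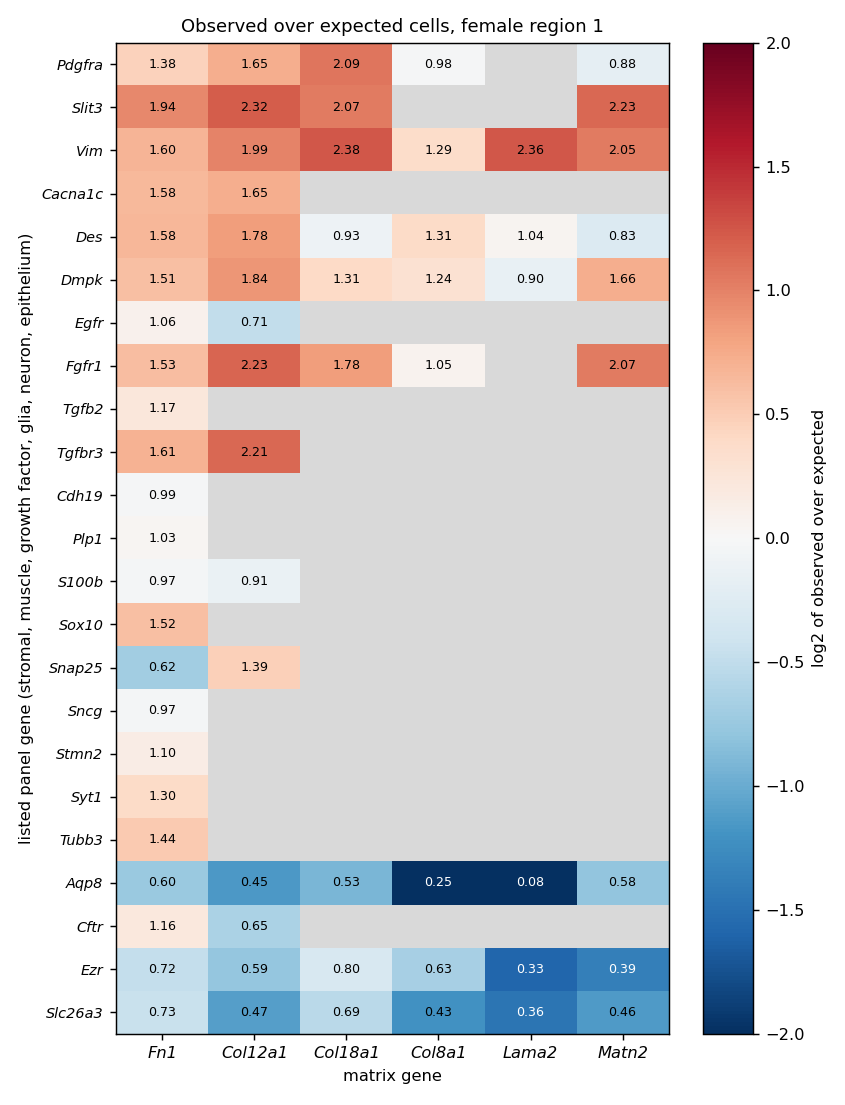
Observed over expected cells (numbers, with colour as log2) for each matrix gene (columns) with each listed panel gene (rows) in female region 1. Grey cells had fewer than 5 expected cells. Vim and Slit3 are red for the matrix genes shown except for a paler 1.29 of Vim with Col8a1, and Aqp8, Slc26a3 and Ezr are blue for all 6.

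The partners with the highest ratios were taken as up to 3 per gene whose interval lay above 1. Some were other matrix genes, but a pair can appear under both its members. The share expected for other panel genes was not computed. For Fn1 the partners were Lama2 (2.22), Col18a1 (1.97) and Gpm6b (1.95), a membrane proteolipid. For Col12a1 they were Abca8a (2.56), a lipid transporter, Zeb2 (2.40), a transcriptional repressor, and Matn2 (2.33). Col18a1 had Vim, the semaphorin and growth factor coreceptor Nrp1 (2.32) and Pdgfra. Matn2 had Col12a1, Slit3 and Fgfr1. Lama2 had Vim and Fn1, and no further gene met the rule.

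Col8a1 had Cracr2a (2.12, 1.16 to 3.56), a calcium sensor, and Fn1 (1.57). Cracr2a was at 0.968 with Fn1 (0.805 to 1.16), 0.711 with Col12a1 (0.421 to 1.12) and 0.939 with Col18a1 (0.450 to 1.73).

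Outside female region 1, Col12a1 was the matrix gene common enough to have partners, and these included genes of synapses. In male region 0 the leading genes were the lipid transporter Abca8b in 50 cells (2.87, 2.13 to 3.79), Tgfbr3 in 19 (2.50, 1.51 to 3.91) and Pclo, a presynaptic scaffold, in 17 (2.38, 1.38 to 3.80). In female region 0 they were Tgfbr3 in 50 cells (2.23, 1.66 to 2.95), Abca8b in 48 (2.08, 1.54 to 2.76) and Snap25, a synaptic fusion protein, in 73 (1.95, 1.53 to 2.46). Snap25 was also at 2.05 in male region 0 (1.47 to 2.80), and the synaptic scaffold Dlgap1 at 2.17 (1.44 to 3.14) there and 1.84 (1.42 to 2.34) in female region 0. Abca8a and Abca8b are close paralogs, and whether their probes tell them apart is not given in the sources used here.

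These ratios must be read against a high middle. The median over all readable partners of Col12a1 was 1.80 over 14 genes in male region 0, 1.36 over 23 in female region 0 and 1.27 over 66 in female region 1, and in female region 0 the most abundant blank was itself at 1.67 (0.954 to 2.71). Tgfbr3 was above 1 by its interval in all 3 of these regions. Abca8b, at 2.87 and 2.08 in the regions numbered 0, was at 1.01 in female region 1 (0.408 to 2.09) and 0.965 in male region 1 (0.313 to 2.25, 5 cells).

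Fgfr1 turned round between regions: it met Col12a1 in 7 cells against 17.6 expected in male region 0 (0.397, 0.160 to 0.819), in 13 cells in female region 0 (1.12, 0.595 to 1.91) and in 47 in female region 1 (2.23, 1.64 to 2.97). Under the binomial expectation all 3 ratios were below 1 (0.0943, 0.225 and 0.835). The difference rests on 1 region of each animal and was not tested.

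**Figure D5:**
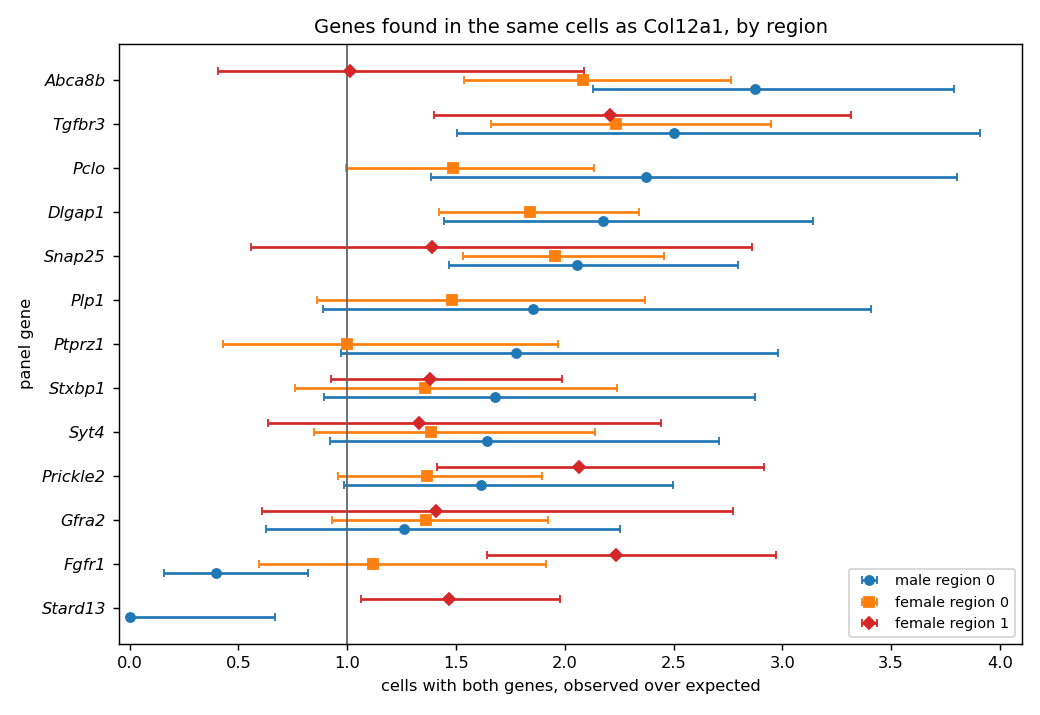
Cells with both Col12a1 and a second panel gene, observed over expected with 95% Poisson intervals, in male region 0 (blue), female region 0 (orange) and female region 1 (red), for genes readable in male region 0 and at least 1 of the others. Tgfbr3 lies above 1 in all 3, Abca8b above 1 in the 2 regions numbered 0, and Fgfr1 and Stard13 below 1 in male region 0 and above it in female region 1.

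Cells positive for the 2 leading genes also differed in what else they held. The median number of other panel counts was 2 in Col12a1 cells of both male regions, 3 in those of female region 0 and 5 in those of female region 1, and 20.8%, 21.7%, 28.98% and 7.40% of them held no other count. For Fn1 the median was 4 in female region 1, with 11.5% holding no other count, and 0 in female region 0, where 56.5% of 23 cells held nothing else. The Fn1 counts of female region 0 lie below its highest blank, so these cells may not be read as Fn1-expressing.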

How the data were processed

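The authors deposited 1 table of transcript counts per region, with cells as rows and genes and blank barcodes as columns, unnormalized. Per the submitters' processing notes Seurat was used. No source used here gives its role, the decoding and segmentation settings or the probe sequences. All deposited cells were kept, and no correction for doublets or mixed segmentation was made.

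The 6 genes, marker thresholds and lists were chosen with earlier results of these data known. All 6 names matched the RefSeq gene table. Counts were summed per region and scaled to 10000 panel counts. Intervals are 95% exact Poisson (levels, co-detection) or Clopper-Pearson (shares, ratios). Fold calls needed 20 counts over both sides, and co-detection 5 expected cells. The edgeR 4.0.16 test needed both animals to have at least 10 cells and 50 counts in a group, and genes at least 50 counts. On simulated sums it called more unchanged genes than its threshold allows, and simulated independent genes gave stratified co-detection ratios slightly above 1. Named genes are the 6 members, the grouping genes, listed panel genes and up to 3 partners per matrix gene and region. Names outside this rule were chosen after their values were seen. Alternatives were other scalings, thresholds, expectations, cell filters, TMM factors and DESeq2. Nothing says the sections of an animal were replicated. With the animal as a block, p-values rest on how far the group difference varied between these 2 animals. Their variance estimates are pooled over the genes tested.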

Additional observations from a re-analysis of the deposited data

Results flagged for a closer look

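With depth strata, Col12a1 lay on opposite sides of 1 with a pair of panel genes in different regions, and neither difference was tested. With Fgfr1, a growth factor receptor, observed over expected cells were 2.23 in female region 1 and 0.397 in male region 0. With Stard13 they were 1.47 in female region 1 (1.06 to 1.98), and 0 in male region 0, where 5.52 cells were expected (0 to 0.668). With the binomial expectation both genes were below 1 in both regions, at 0.835 and 0.0943 for Fgfr1 and 0.656 and 0 for Stard13, so the opposite sides of 1 appear only with depth strata. Both cases set 1 region of the female against 1 of the male.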

How the results depend on the processing

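Counts are shallow outside female region 1, cells are not replicates, and each region is 1 sample, so the limits below concern counting and scaling only. The number of matrix genes above background, by the mean plus 2 SD of the blanks in place of the highest, was 2 in male region 0 and 2 in female region 0. Per cell, the Fn1 ratio was 76.7 between the female regions and 151.05 between animals, and that of Col12a1 was 0.537 between the female regions, 0.415 between the male regions and 2.32 between animals, the last a reversal. In cells with at least 10 counts, Fn1 was at 54.6 and Col12a1 at 0.0585 between the female regions, and Col12a1 at 5.67 between the male regions. Without female region 1, the ratios of female over male were 1.30 for Fn1, 1.54 for Col12a1 and 0.423 for Col8a1, the last 2 reversed.

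For Fn1 against unmarked cells, Pdgfra cells gave 1.22 with only cells meeting 1 criterion, 1.13 with stricter thresholds, 1.16 in cells with at least 10 counts, 4.84 per cell and 1.10 against all other cells. Vim cells gave 1.73, 2.14, 1.91, 6.45 and 1.89 in that order, and Des cells 2.00 in deep cells, 7.04 per cell and 1.79 against all other cells. Aqp8+Slc26a3 cells gave 0.0830 with the stricter threshold and 1.14 per cell, a reversal shared per cell by Col12a1 (1.67) and Col18a1 (1.92), which left 2 of 6 genes at least 2-fold lower. Per cell, Col8a1 (1.99) and Matn2 (2.36) in Pdgfra cells and Col8a1 in Vim cells (2.53) also reversed.

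With the binomial expectation 0 matrix pairs reached 1.5, and ratios turned below 1 for Fn1 with Col12a1 (0.804), Col18a1 (0.940), Col8a1 (0.687), Lama2 (0.922) and Matn2 (0.844), and for Col12a1 with Col18a1 (0.784), Matn2 (0.809) and Lama2 (0.840). In unmarked cells Col12a1 with Col18a1 was at 0.812, on 3.70 expected cells. Of 22 named partners 5 were above 1 under the binomial, and 21 had point estimates above the median partner of their gene, a comparison added later. edgeR called 0 genes without the animal block and DESeq2 0 (with 1 and 3 at an unadjusted p under 0.05), against 3 with TMM factors, without the minimum count, or with 1 common dispersion (added later). No matrix gene passed in any of these. The log2 fold change of Col12a1 ranged from -1.02 without the male to 0.18 without the female. The first value sums both female regions, and within female region 1 the ratio of Pdgfra over unmarked cells was 0.998 (0.739 to 1.33). Over all values and alternatives run, 194 lay within the interval or count range of the reported value or on the same side of its test, 77 moved beyond it and 19 reversed. The causes of these shifts were not tested.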
